A study of Mus musculus with 12 samples.

Results

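The averaged comparison of both tumour genotypes with normal colon asked which genes lay apart from normal colon in tumours whatever the genotype. Its common programme was defined as the genes called changed in that average for which all 8 tumour libraries stood on one side of all 4 normal libraries. The files list 24054 genes, of which 14860 passed the filter on low counts, and the definition was met by 596 that were higher and 480 that were lower in tumours.

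RNA-seq was done on 12 libraries of mouse colon tissue, 4 in each of 3 groups, and all from the immunodeficient strain NSG. N is normal colon with the wild type genotype. BT-T is tumour of the genotype BrafV600E;Tgfbr2-/-, which carries an activated form of the kinase Braf and lacks Tgfbr2, a receptor for TGF-beta. BTPRZ-T is tumour that carries these changes and also lacks Rnf43, Znrf3 and p16 Ink4a. The series title speaks of genetically edited colonic organoids and of an orthotopic model of serrated carcinogenesis. The labels give neither the ages of the mice nor whether libraries of the same group stem from different animals or several organoid clones, so p-values measure the spread between these libraries, which may be technical in part. RNA came from tissue, so a tumour library can hold host cells beside the edited epithelium.

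The normal colon is lined by absorptive colonocytes, which take up salt, water and short-chain fatty acids and carry detoxifying enzymes, and by mucus-secreting goblet cells, both renewed from stem cells at the crypt base. Braf relays growth factor signals to the kinase ERK, whose output includes AP-1 transcription factors, while TGF-beta restrains growth of the colonic epithelium. Rnf43 and Znrf3 tag WNT receptors with ubiquitin and so clear them from the membrane, and p16 Ink4a blocks the kinases that drive entry into the cell cycle. Serrated tumours of the colon are known for BRAF mutation, for genes of the stomach and for a return of fetal-like epithelial genes.

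Each library held between 15.7 M and 26.1 M gene reads. N replicate 2 stood apart from the other normal libraries: ribosomal protein genes took 10.6% of its reads against 1.52 to 1.87%, and it held 14175 genes with a read against 16152 to 16432. BTPRZ-T replicate 1 was closest to it in ribosomal protein reads (8.76%), and in BTPRZ-T replicate 4 only 13450 genes had a read, fewer than in any other library. Markers of epithelium were present in every library. The surface protein Epcam stood at 1175 to 1671 CPM in N, 949 to 1244 in BT-T, with 1116 to 2378 in BTPRZ-T, and its averaged log2 fold change was -0.01 (edgeR adjusted p = 0.988). CPM are counts scaled to a common library total with TMM factors, so they compare libraries for 1 gene and not genes with each other.

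In the averaged comparison, 976 genes were called higher (6.57% of those tested) and 1018 lower (6.85%), by edgeR's quasi-likelihood test with a Benjamini-Hochberg adjusted p under 0.05. All 8 tumour libraries lay above all 4 normal libraries for 667 genes (4.49%), whether or not they were called, and below them for 582 (3.92%). Both conditions held for 596 higher genes (4.01%) and 480 lower genes (3.23%), which form the common programme, so 71 separated genes on the high side and 102 on the low side missed the call, and 380 and 538 called genes overlapped. Because the definition used these levels, the numbers below describe the programme and do not test it. With each genotype set against N on its own, 445 of the higher genes were called in both. Another 46 were called in BT-T only, 84 in BTPRZ-T only and 21 in neither. For the lower genes these numbers were 223, 50, 154 and 53, so a programme gene need not be called in each genotype. The count of calls moved with single libraries. Without N replicate 2 it was 1711 higher and 1908 lower, with 1056 and 1316 separated. Without N replicate 1 it was 583 higher and 668 lower, and 674 and 653 lower genes were called without BT-T replicates 2 and 3. Of the programme as defined on all libraries, 594 of the 596 higher genes and 459 of the 480 lower genes were still called without N replicate 2, and 465 and 350 were called in each of the 12 fits that left out 1 library.

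Rises were larger than falls. The median averaged log2 fold change was 2.39 over the higher genes and -1.61 over the lower genes, against -0.13 over all genes tested. Among the higher genes, 360 changed at least 4-fold and 109 at least 16-fold. The corresponding numbers for the lower genes were 186 and 48. The gap between groups, the log2 ratio of the nearest libraries of both sides after 0.5 CPM was added, had a median of 0.47 for higher genes and 0.32 for lower genes, so that many genes of the programme were separated by little, and 29 and 16 genes had a gap of at least 4-fold. At the narrow end stood Mylk, a smooth muscle kinase, with a gap of 0.02, its highest tumour library at 644 CPM and its lowest N library at 655. Higher genes took 0.975 to 1.29% of gene reads in N, 4.78 to 6.70% in BT-T, with 4.26 to 6.72% in BTPRZ-T. Lower genes took 5.76 to 7.51% in N, 2.61 to 3.92% in BT-T, with 2.41 to 2.90% in BTPRZ-T.

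Promoter windows were read to show what the programme's genes hold at their start sites. RefSeq windows on GRCm38.p6, from 250 bases before to 50 after a transcript start, 1 window per gene, were matched for 11727 of the genes tested, 435 of the higher and 379 of the lower programme. The AP-1 motif TGANTCA, on either strand, was in 12.9% of windows of higher genes and 8.44% of windows of lower genes, against 5.47% of all windows. Windows of the programme held fewer CpG dinucleotides, with medians of 14 and 12 against 20. Among windows with under 12 CpG, the AP-1 share was 22.4% for higher genes, 14.9% for lower genes and 11% for all. Shares of the other motifs are given in the order higher, lower and all. The TEAD motif CATTCC was in 13.1%, 12.9% and 12.2%. For the CDX motif TTTATNG the shares were 11%, 9.76% and 7.45%, and for the HNF4 motif they were 0.690%, 1.58% and 0.443%. An interferon response element was in 5.06%, 6.07% and 3.03%, and the ETS motif CCGGAAG in 5.06%, 10.6% and 16.5%. Among windows with under 12 CpG, the TEAD shares were 13.5%, 15.5% and 17.1%, in the other direction. The CDX shares there were 16.7%, 14.4% and 12.8%, and the HNF4 shares 1.04%, 2.76% and 1%. For the interferon response element they were 7.3%, 9.9% and 5.3%, and for ETS 3.1%, 4.4% and 5.8%. Part of the differences over all windows thus went with CpG content. Of the windows, 53.1% lay at the outermost start that RefSeq gives the gene and the others further inside it. These shares are descriptions without a test, and a match is not a bound site.

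The windows below show what these matches look like in genes whose values are given below, with each motif in capitals. Mmp13 (chr9:7272264-7272563, plus strand) and Plaur (chr7:24462233-24462532, plus strand) hold 1 AP-1 match each, 35 and 69 bases before the start site of the window, which for Plaur lies 1546 bases inside the gene's outermost start. Serpinb11 (chr1:107362064-107362363, plus strand) and Arhgap40 (chr2:158512546-158512845, plus strand), from among the largest rises, hold 2 AP-1 matches each.
Mmp13: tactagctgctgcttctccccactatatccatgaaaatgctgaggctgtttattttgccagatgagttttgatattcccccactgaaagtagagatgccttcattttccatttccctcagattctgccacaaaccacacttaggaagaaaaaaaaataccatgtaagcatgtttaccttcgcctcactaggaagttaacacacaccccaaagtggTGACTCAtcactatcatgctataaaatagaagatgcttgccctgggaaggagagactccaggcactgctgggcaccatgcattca
Plaur: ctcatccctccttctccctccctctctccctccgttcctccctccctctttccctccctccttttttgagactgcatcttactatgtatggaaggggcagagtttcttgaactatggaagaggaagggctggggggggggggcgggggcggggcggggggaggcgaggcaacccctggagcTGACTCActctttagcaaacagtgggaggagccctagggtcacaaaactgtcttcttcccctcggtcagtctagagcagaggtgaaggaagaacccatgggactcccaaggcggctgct
Serpinb11: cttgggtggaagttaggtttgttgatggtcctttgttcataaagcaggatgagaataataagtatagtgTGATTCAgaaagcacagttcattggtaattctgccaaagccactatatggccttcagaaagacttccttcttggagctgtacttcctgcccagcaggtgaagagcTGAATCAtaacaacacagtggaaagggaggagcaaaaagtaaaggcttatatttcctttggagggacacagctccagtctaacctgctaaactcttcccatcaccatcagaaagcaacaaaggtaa
Arhgap40: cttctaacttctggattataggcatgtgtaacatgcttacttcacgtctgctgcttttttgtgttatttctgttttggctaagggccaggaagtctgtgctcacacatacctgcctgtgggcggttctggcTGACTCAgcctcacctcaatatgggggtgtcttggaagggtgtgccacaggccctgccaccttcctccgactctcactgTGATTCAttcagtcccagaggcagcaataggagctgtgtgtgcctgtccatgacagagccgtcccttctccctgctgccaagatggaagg
On the lower side, Fabp2 (chr3:122894822-122895121, plus strand) holds 1 CDX match 65 bases before its start, and Isg15 (chr4:156200769-156201068, minus strand) holds 3 overlapping matches to the interferon response element.
Fabp2: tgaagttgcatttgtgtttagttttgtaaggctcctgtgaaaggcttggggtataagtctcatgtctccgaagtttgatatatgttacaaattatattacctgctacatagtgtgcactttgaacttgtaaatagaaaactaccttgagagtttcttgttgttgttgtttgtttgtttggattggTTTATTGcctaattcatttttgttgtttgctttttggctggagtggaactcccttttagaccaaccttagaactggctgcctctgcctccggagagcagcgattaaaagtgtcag
Isg15: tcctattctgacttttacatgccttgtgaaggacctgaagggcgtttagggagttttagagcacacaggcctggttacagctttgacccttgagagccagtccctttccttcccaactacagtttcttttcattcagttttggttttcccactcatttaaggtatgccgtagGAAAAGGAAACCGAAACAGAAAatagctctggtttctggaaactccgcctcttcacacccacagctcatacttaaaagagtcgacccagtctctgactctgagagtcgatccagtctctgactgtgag

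Of the edited genes, Cdkn2a alone belonged to the programme. It encodes the cell cycle inhibitors p16 Ink4a and Arf, and reads over the whole gene do not show whether the edited stretch is intact. Its level was 0.230, 0.271, 0.355 and 0.270 CPM in N, 8.75, 10.7, 15.8 and 8.21 in BT-T, with 31.4, 19.96, 25.6 and 18.8 in BTPRZ-T. Every tumour library lay far above N, and every BTPRZ-T library, whose label gives loss of p16, lay above every BT-T library. The averaged log2 fold change was 5.81 ± 0.37 (SE; edgeR adjusted p = 1.405e-05), and the difference between the genotypes was 1.14 ± 0.29 with an adjusted p of 0.0905. Rnf43 rose by the test (1.19 ± 0.34, adjusted p = 0.0365), with overlapping groups, 19.3 to 74.6 CPM in N and 56.9 to 193 in tumours, and it kept its call in 4 of the 12 fits without 1 library. Braf, Tgfbr2 and Znrf3 were not called, with log2 fold changes of -0.38, 0.57 and 0.17 and adjusted p of 0.595, 0.284 and 0.871.

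Genes with the largest rises were at or near the limit of detection in normal colon. Prss22, a secreted serine protease, stood at 0.115, 0.677, 0.295 and 0.0675 CPM in N, 31.7, 46.9, 45.0 and 23.5 in BT-T, with 35.1, 35.0, 56.2 and 19.1 in BTPRZ-T. No library of either tumour group came near N, and the ranges of both tumour groups overlapped. Its log2 fold change was 6.97 ± 0.60 (edgeR adjusted p = 6.291e-05), and its gap of 4.06 was the widest of the genes named on the high side. Arhgap40, which by its name is a GTPase-activating protein, behaved alike: 0.173, 0.474, 0.0591 and 0.0675 CPM in N, 10.1, 18.7, 18.2 and 19.7 in BT-T, with 10.7, 14.7, 20.6 and 21.0 in BTPRZ-T. All its tumour libraries lay close together and above N (6.41 ± 0.57, adjusted p = 7.385e-05). Col10a1, the collagen of hypertrophic cartilage, had the largest log2 rise of the named genes (7.26 ± 1.25, adjusted p = 0.00267) with a wide spread, 0 to 2.71 CPM in N and 8.59 to 420.1 in tumours. Serpinb11, a clade B serpin, ranged from 0 to 0.406 CPM in N and from 4.68 to 36.1 in tumours. Zic2 and Osr2, transcription factors of embryonic patterning, rose by 6.40 ± 0.65 and 5.27 ± 0.49, to 4.29 to 20.5 CPM and 18.5 to 99.8 CPM, while Padi4, a peptidylarginine deiminase, rose by 5.35 ± 0.58 to 10.1 to 26.1 CPM. The heat map by library shows these genes beside those with the largest falls.

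**Figure D1:**
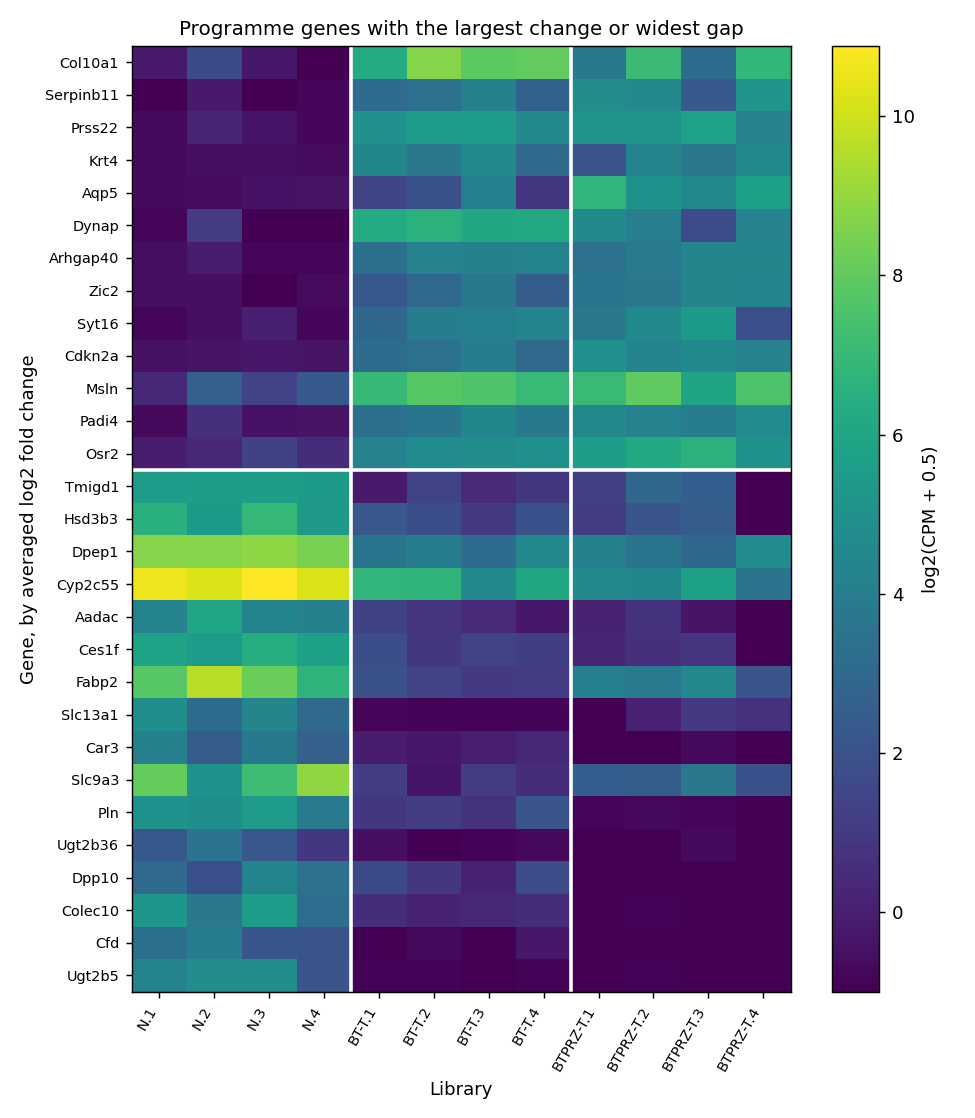
Rows are programme genes from among those with the largest rise or fall or the widest gap between groups, ordered by averaged log2 fold change, columns are the 12 libraries, and colour is log2(CPM + 0.5). The upper block is dark in all 4 N libraries and lighter in all 8 tumour libraries, the lower block the reverse, with Dpep1 at 346 to 459 CPM in N and 7.71 to 26.7 in tumours.

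Some genes of fetal-like and YAP-linked epithelium rose. Of 32 tested members of this list, 13 rose and 0 fell, 12 of them in the programme, and 19, among them Anxa1, Areg and Il33, were not called. The list's median log2 fold change was 1.19, and 1.90 without N replicate 2. Mesothelin, Msln, a surface glycoprotein, stood at 0.806, 5.75, 2.13 and 4.73 CPM in N, 125, 220.2, 195 and 129 in BT-T, with 131, 249.0, 60.7 and 186 in BTPRZ-T. All tumours lay above N, with BTPRZ-T replicate 3 the lowest of them (5.60 ± 0.62, edgeR adjusted p = 0.000231). Clusterin, Clu, a marker of revival after injury in the intestine, was less even: 34.8, 89.1, 48.4 and 117 CPM in N, 867, 419, 1818 and 249 in BT-T, with 3435, 2702, 3349 and 2544 in BTPRZ-T. All tumours lay above N and all BTPRZ-T libraries above all BT-T libraries, but the difference between genotypes was not called (1.84 ± 0.57, adjusted p = 0.137). The simple keratin Krt7 (115 to 293 CPM in N, 684 to 1184 in tumours), the membrane-binding protein Anxa5 (75.0 to 109, 222 to 378) and Krt18, called with 467 to 553 CPM in N, also belonged to the programme.

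Squamous and gastric genes gave few members. Of 13 tested squamous genes, 3 rose (Krt4, Dsg3 and Sbsn) and 3 fell (Krt17, Sfn and Plet1), and the number that rose was 5 without N replicate 2 and 1 without N replicate 3 or 4 or BT-T replicate 2, 3 or 4. Krt4, a keratin of the oesophagus, stood at 0.115, 0.203, 0.177 and 0.135 CPM in N, 21.1, 12.6, 25.02 and 7.80 in BT-T, with 3.68, 19.6, 12.8 and 25.01 in BTPRZ-T, with no overlap (6.61 ± 0.68, edgeR adjusted p = 0.000149). Of 19 tested gastric and serrated lesion genes, 6 rose and 1 fell, 3 of them in the programme, but 2 rose without N replicate 1 and 3 without N replicate 4. The water channel Aqp5 stood at 0.115, 0.135, 0.236 and 0.270 CPM in N, 2.30, 3.36, 16.8 and 1.42 in BT-T, with 113, 32.6, 23.1 and 54.9 in BTPRZ-T. It was above N in every tumour library and above every BT-T library in BTPRZ-T (6.55 ± 0.93, adjusted p = 0.000893), and the difference between genotypes of 3.22 ± 0.75 had an adjusted p of 0.0734. The list's fall was Nox1, an oxidase of colonic epithelium (-1.21 ± 0.31, adjusted p = 0.0212). Crypt stem and progenitor genes showed no common direction: of 20 tested, 3 rose (Olfm4, Smoc2 and Cd44) and 2 fell (Rgmb and Nr2e3, 1 of them without most single libraries). Lgr5, the receptor that marks crypt stem cells, stood at 16.4 to 25.04 CPM in N and 21.7 to 75.2 in tumours and was not called (0.70 ± 0.28, adjusted p = 0.118).

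**Figure D2:**
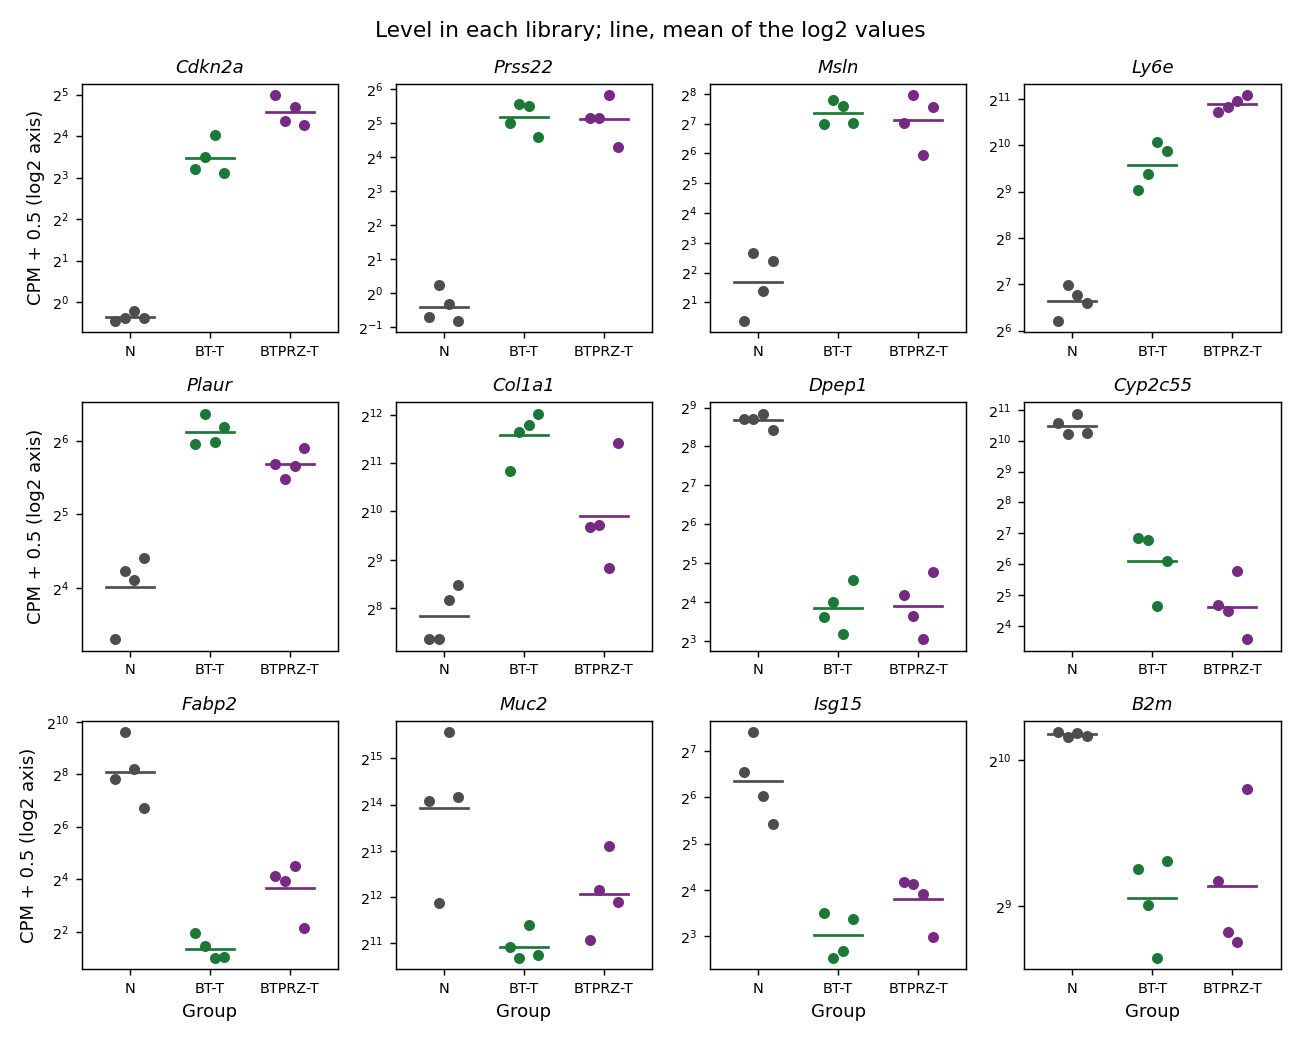
Points are the level of 12 genes in each library as CPM + 0.5 on a log2 axis that differs between panels, by group, and lines are means of the log2 values over 4 libraries. The panels from Cdkn2a to Col1a1 have every tumour point above every N point, those from Dpep1 on have them below, except that Muc2 overlaps.

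Genes of the signalling pathways that the edits touch moved in part. Of 42 tested genes of MAPK output and feedback, 17 rose and 1 fell, 12 of them in the programme, and the list's median was 0.82. Plaur, the urokinase receptor, stood at 9.33, 18.3, 16.7 and 20.8 CPM in N, 61.7, 82.3, 62.8 and 72.6 in BT-T, with 50.7, 44.2, 49.96 and 59.6 in BTPRZ-T. Tumour libraries were all above N and close to each other (1.88 ± 0.23, edgeR adjusted p = 0.000403). Ier3, an immediate early gene, rose by 2.78 ± 0.38, and the EGF receptor ligand Hbegf by 1.29 ± 0.21 (17.96 to 24.1 CPM in N, 36.1 to 72.6 in tumours). Among feedback genes, Dusp4, an ERK phosphatase, and Spry1, a Sprouty inhibitor, rose with overlapping groups (2.05 ± 0.43 and 0.83 ± 0.24). Their listed relatives Dusp1, Dusp2, Dusp5, Dusp6, Dusp10, Spry2, Spry4, Spred1, Spred2 and Spred3 were not called. Of the EGR and AP-1 genes in the same list, Egr2, Egr3 and Junb rose and were in the programme. Egr1, Fos, Fosb, Fosl1 and Jun were not called. The ETS factors split, with Etv4 higher (1.38 ± 0.28), Etv5 lower (-1.42 ± 0.32, a call lost without N replicate 3) and Etv1 not called. Of the list's rises, Plaur, Plau, Mmp3, Mmp10 and Mmp13 are also counted among the matrix-degrading proteases below. Ccnd1, cyclin D1, stood at 44.9 to 151 CPM in N and 205 to 335 in tumours (1.31 ± 0.31, adjusted p = 0.0144).

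Of 38 tested genes of the TGF-beta pathway and response, 12 rose and 2 fell, with 7 of the rises in the programme and 7 rises left without N replicate 1. The ligand Tgfb1 stood at 13.3, 10.8, 19.6 and 23.6 CPM in N, 85.2, 144, 132 and 129 in BT-T, with 72.6, 82.0, 53.8 and 180 in BTPRZ-T, all tumours above N (2.70 ± 0.37, edgeR adjusted p = 0.000738). Inhba, which encodes activin A, rose from 0.355 to 1.08 CPM to 2.53 to 23.0 (4.23 ± 0.59). Pmepa1 and Tgif1, both targets and brakes of TGF-beta signals, rose by 1.99 ± 0.31 and 1.18 ± 0.16. Smad6, an inhibitor of BMP signals, was among the falls (-1.13 ± 0.28), and the number of falls was 4 without N replicate 2 and 1 without N replicate 1 or 3.

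Of 36 tested genes of the WNT pathway and its targets, 13 rose and 1 fell, 5 of them in the programme, and 7 rose without N replicate 1 or without N replicate 3. The list holds antagonists of the pathway, grouped here after their values were seen: Wif1, Apcdd1, Dkk2, Sfrp1, Sfrp2 and Rnf43 rose, Sfrp5 fell, and Dkk3, Sfrp4, Frzb, Notum, Nkd1, Nkd2 and Znrf3 were not called. Wnt7b, a ligand, stood at 0.115, 7.11, 0.118 and 0.540 CPM in N, 50.2, 52.97, 79.5 and 44.6 in BT-T, with 33.8, 49.9, 29.2 and 28.0 in BTPRZ-T. Its normal levels were near 0 but for N replicate 2, and no tumour library overlapped N (4.52 ± 0.97, edgeR adjusted p = 0.00893). The target Sp5 rose in the programme (3.98 ± 0.82), from 0 to 0.405 CPM to 0.906 to 15.9, while Axin2, the feedback target, was not called (-0.41 ± 0.31, adjusted p = 0.427). The fall was Sfrp5, with 151 reads over N, 284 over BT-T and 3 over BTPRZ-T (adjusted p = 0.0364 for the average), so BT-T did not lie below N in reads, and the number of falls was 5 without N replicate 2 and 0 in most other fits without 1 library. Among 29 tested p53 targets and CDK inhibitors, 7 rose and 0 fell, 6 of them in the programme. Next to Cdkn2a these included Phlda3 (1.72 ± 0.35), Eda2r (1.90 ± 0.25) and Igfbp3 (2.03 ± 0.28). Cdkn1a, the p53 target p21, was not called (122 to 511 CPM in N, 190 to 305 in tumours, adjusted p = 0.912).

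Of 48 tested matrix-degrading proteases and their inhibitors, 31 rose and 0 fell, with 15 in the programme and a median of 1.67. Mmp13, a collagenase, stood at 1.04, 2.84, 1.30 and 2.09 CPM in N, 74.4, 25.9, 54.5 and 11.6 in BT-T, with 105, 45.8, 39.6 and 12.7 in BTPRZ-T. Tumour levels spread widely in both genotypes and did not overlap N (4.66 ± 0.71, edgeR adjusted p = 0.00135). Plat, tissue plasminogen activator, rose by 3.30 ± 0.32 (5.76 to 13.9 CPM in N, 46.8 to 141 in tumours), and Adamts4, an aggrecanase, by 2.85 ± 0.32. Its substrate aggrecan, Acan, stood at 0.115, 0.812, 0 and 0.203 CPM in N, 16.5, 57.8, 47.6 and 58.2 in BT-T, with 3.87, 10.8, 12.2 and 8.69 in BTPRZ-T, all above N and all BTPRZ-T below all BT-T (6.16 ± 0.79, adjusted p = 0.000547). The difference between genotypes for Acan was -2.34 ± 0.64 (adjusted p = 0.101).

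Of 39 tested collagens and matrix glycoproteins, 27 rose and 1 fell (Ogn; 2 fell without N replicate 2), with 16 in the programme and a median of 1.95. Col1a1, the chain of type I collagen, stood at 163, 163, 289 and 354 CPM in N, 1824, 3186, 3545 and 4166 in BT-T, with 819, 840.0, 453 and 2750 in BTPRZ-T. Every tumour library lay above N, though BTPRZ-T replicate 3 by little, and BTPRZ-T replicate 4 lay within the BT-T range (3.02 ± 0.53, edgeR adjusted p = 0.00285). Col5a2 and the endostatin source Col18a1 rose by 2.52 ± 0.34 and 2.22 ± 0.29, and thrombospondin 2, Thbs2, by 3.51 ± 0.54. Summed over the list, levels were 3892 to 6865 CPM in N, 22673 to 35243 in BT-T, with 5942 to 24745 in BTPRZ-T, so the sum overlapped N in BTPRZ-T.

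Markers of stromal cells moved beside the matrix genes, and their part in those results was not tested. In whole tissue, fewer cells of a type and less RNA per cell cannot be told apart. Of 32 tested markers of fibroblasts and pericytes, 10 rose and 1 fell (Rgs5; 2 fell without BTPRZ-T replicate 3 or 4), with 3 rises in the programme. Their summed level was 2053 to 3379 CPM in N, 2699 to 3870 in BT-T, with 721 to 3151 in BTPRZ-T. Pdgfrb, a receptor of fibroblasts and pericytes, rose by 1.58 ± 0.30, and Lrrc15, known from tumour fibroblasts, by 5.58 ± 0.84 (0 to 0.406 CPM in N, 1.10 to 12.95 in tumours). Among 26 endothelial markers, 10 rose and 1 fell, but 4 rose without BT-T replicate 2, 5 without N replicate 1 or 3, and 6 without BT-T replicate 3 or 4 or BTPRZ-T replicate 2. Their number of falls was 0 in 8 of the 12 fits without 1 library and 2 without N replicate 2. Cdh5, the cadherin of endothelial junctions, stood at 33.9, 19.7, 29.2 and 36.5 CPM in N, 113, 285, 265 and 307 in BT-T, with 134, 158, 120.3 and 265 in BTPRZ-T, with no overlap (2.76 ± 0.35, adjusted p = 0.000501). Apln and its receptor Aplnr, a pair active in growing vessels, rose by 3.31 ± 0.44 and 2.59 ± 0.44.

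**Figure D3:**
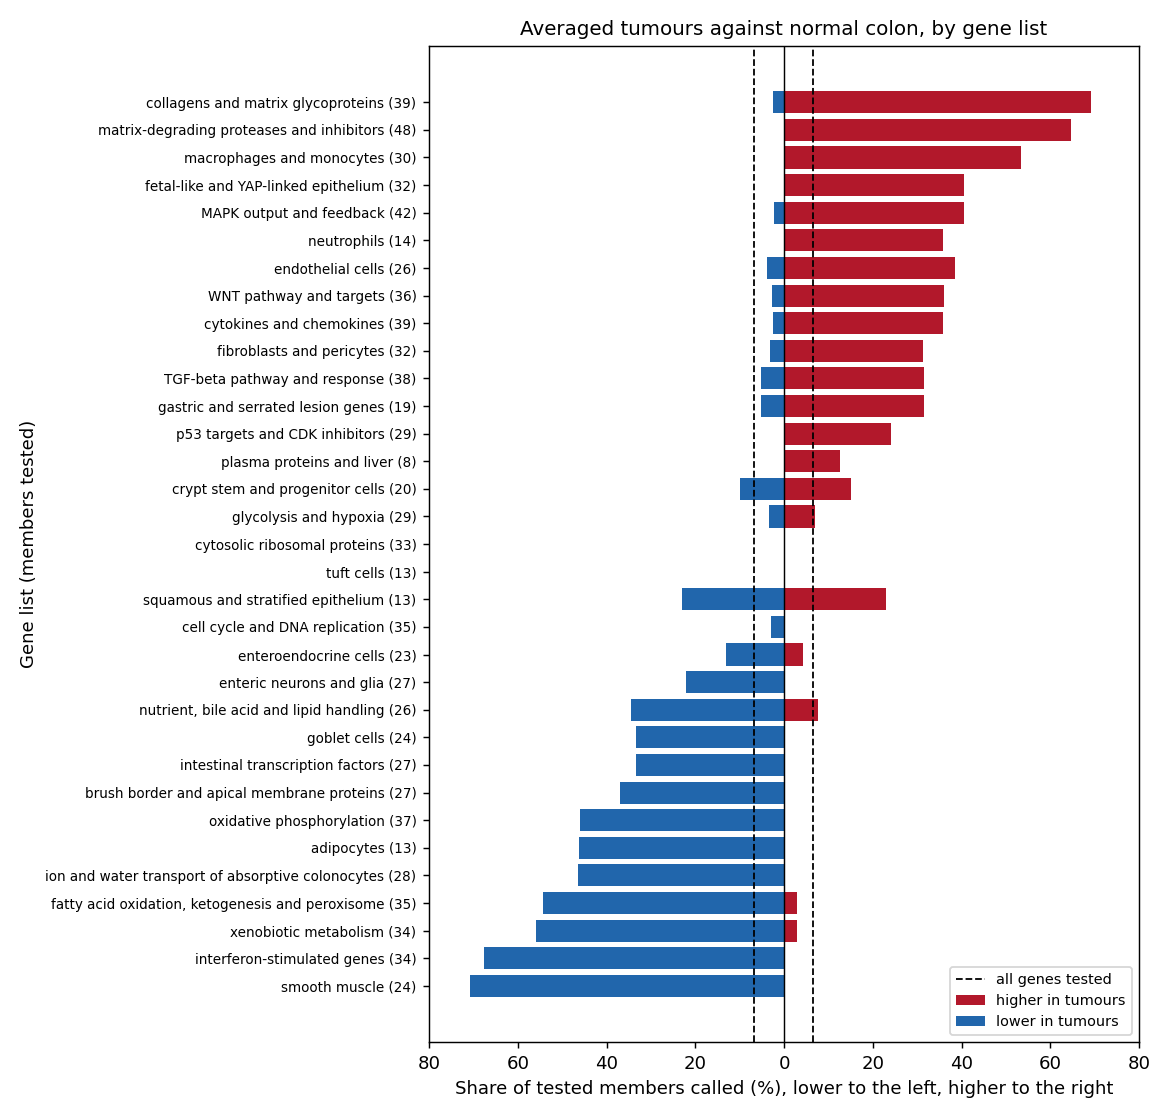
Bars give the share of tested members of each gene list called higher (right) or lower (left) in the averaged comparison, with the number tested in parentheses, and dashed lines mark the shares over all genes tested, 6.57% and 6.85%. Lists of matrix, proteases and macrophages lie far to the right, and smooth muscle, interferon-stimulated, xenobiotic and fatty acid oxidation lists far to the left; the list of T, B and NK lymphocytes, with 4 tested members, is not drawn.

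Some myeloid genes rose, with counts that moved down or up without single normal libraries. Of 30 tested markers of macrophages and monocytes, 16 rose and 0 fell, with 8 in the programme and a median of 2.35. The number that rose was 5 without N replicate 1 and 7 without N replicate 3. Without N replicate 2, 21 rose and 1 fell, with a median of 3.05. Without N replicate 2 and BTPRZ-T replicates 1 and 4 together, 24 rose and 1 fell. The list's summed level was 281 to 830 CPM in N, 1600 to 2896 in BT-T, with 541 to 4776 in BTPRZ-T. Itgam, the integrin CD11b, stood at 9.56, 10.4, 8.74 and 9.38 CPM in N, 48.4, 148, 86.9 and 71.8 in BT-T, with 28.0, 24.0, 18.1 and 69.1 in BTPRZ-T. Normal libraries were nearly equal and all tumours were above them (2.55 ± 0.41, edgeR adjusted p = 0.00191). Among 14 tested neutrophil markers, 5 rose and 0 fell (9 without N replicate 2 and 3 without N replicate 3 or 4 or BT-T replicate 2 or 3, and 1 fell without N replicate 2 or BTPRZ-T replicate 3). Csf3r, the G-CSF receptor, stood at 1.21, 2.37, 0.709 and 1.62 CPM in N, 10.7, 37.6, 23.1 and 15.1 in BT-T, with 18.1, 8.19, 7.27 and 30.5 in BTPRZ-T, with no overlap (3.66 ± 0.57, adjusted p = 0.00155). Ltf, lactoferrin, had 3 reads over N and 419 over the tumours, a ratio of 52.4 after scaling with a 95% interval of 17.8 to 255 that covers counting error only. NSG mice lack mature T, B and NK cells, and 4 of 26 listed lymphocyte markers had enough reads to be tested. Of these, 2 rose (Cd79b and Il7r), both outside the programme, and 0 rose without N replicate 3 or BT-T replicate 2, 3 or 4.

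Of 39 tested cytokines and chemokines, 14 rose and 1 fell (Ccl28), with 10 in the programme and 25 rises without N replicate 2. Cxcl5, a neutrophil chemokine, stood at 0.115, 0.203, 0.355 and 0 CPM in N, 16.03, 28.5, 21.9 and 4.15 in BT-T, with 16.8, 8.81, 1.82 and 3.23 in BTPRZ-T. Tumour libraries varied widely in both genotypes and stayed above N (6.04 ± 0.96, edgeR adjusted p = 0.00168). Cxcl16, a membrane-bound chemokine, was steadier at 20.7, 21.1, 11.2 and 16.9 CPM in N, 82.5, 122, 130 and 84.1 in BT-T, with 216, 170, 115 and 244 in BTPRZ-T (3.00 ± 0.29, adjusted p = 0.000114). Il1a, an alarm cytokine, rose by 5.66 ± 0.85 and Cxcl14, a chemokine of epithelium and fibroblasts, by 3.64 ± 0.44.

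Most interferon-stimulated genes fell. Of 34 tested, 23 fell and 0 rose, with 10 in the programme and a median of -1.25, and 13 fell without N replicate 1. Without N replicate 2, BT-T replicate 1 or BTPRZ-T replicate 4, 1 rose. Isg15, a ubiquitin-like protein, stood at 92.7, 168, 64.5 and 42.3 CPM in N, 10.7, 5.26, 5.91 and 9.88 in BT-T, with 17.4, 17.0, 14.5 and 7.38 in BTPRZ-T. All tumours were below N (-3.12 ± 0.35, edgeR adjusted p = 0.000255). Ifit2, Rsad2 and Zbp1, antiviral effectors and a nucleic acid sensor, fell by 1.91 ± 0.26, 2.38 ± 0.29 and 1.76 ± 0.25 on the log2 scale. B2m, the light chain of class I antigen presentation, varied little in N, at 1169, 1145, 1166 and 1150 CPM, with 610, 513, 399 and 634 in BT-T, with 576, 451, 431 and 894 in BTPRZ-T. No tumour library reached N (-1.04 ± 0.23, adjusted p = 0.0116), while the class I heavy chain genes H2-D1 and H2-K1, near-identical to their relatives, were not called (adjusted p = 0.906 and 0.0640).

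Genes of the absorptive colonocyte were among the falls. Among 28 tested genes of ion and water transport, 13 fell and 0 rose, with 5 in the programme, a median of -1.45 and 20 falls without N replicate 2, while 2 rose without N replicate 4. Slc9a3, the apical sodium-proton exchanger NHE3, stood at 265, 34.2, 147 and 486 CPM in N, 1.74, 0.292, 1.67 and 0.912 in BT-T, with 5.42, 5.17, 13 and 3.45 in BTPRZ-T. N replicate 2 was the lowest normal library and above all tumours (-6.37 ± 0.63, edgeR adjusted p = 0.000118), and the difference between genotypes, 2.53 ± 0.75, had an adjusted p of 0.122. The sulphate carrier Slc13a1 and the water channel Aqp4 fell by 6.26 ± 0.71 and 3.95 ± 0.37 on the log2 scale. The chloride exchanger Slc26a3 fell with overlap, at 263 to 1421 CPM in N and 45.1 to 294 in tumours (-3.12 ± 0.42). Guca2a, which encodes guanylin, the peptide that regulates salt and water secretion, stood at 1439, 5270.0, 1563 and 702 CPM in N, 376, 108, 83.1 and 150.0 in BT-T, with 322, 145, 119 and 296 in BTPRZ-T, with no overlap (-3.50 ± 0.54, adjusted p = 0.00142).

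Of 26 tested genes of nutrient, bile acid and lipid handling, 9 fell, 7 of them in the programme, and 2 rose (Acsl5 and Abcg5, 1 of them in most fits without 1 library). Fabp2, the intestinal fatty acid-binding protein, stood at 223, 777, 297 and 104 CPM in N, 3.38, 2.24, 1.499 and 1.57 in BT-T, with 17.0, 14.7, 21.98 and 3.88 in BTPRZ-T. Every BT-T library lay below every BTPRZ-T library, and all lay below N (-5.97 ± 0.54, edgeR adjusted p = 7.814e-05), with an adjusted p of the genotype difference of 0.0739. Slc51b, a subunit of the bile acid exporter, fell by 3.58 ± 0.45 on the log2 scale, and the glucose carrier Slc5a1 by 1.38 ± 0.25. Brush border genes had 10 of 27 tested lower and 0 higher, 5 in the programme and 6 lower without BT-T replicate 3. The butyrophilin-like gene Btnl1, which supports intraepithelial lymphocytes, and Tmigd1, an adhesion protein of the brush border, fell by 5.90 ± 0.85 and 4.49 ± 0.74. Dpep1, a membrane dipeptidase outside the lists, fell in both genotypes: 420, 416, 459 and 346 CPM in N, 11.7, 15.5, 8.49 and 23.2 in BT-T, with 17.7, 11.97, 7.71 and 26.7 in BTPRZ-T. The ranges of both tumour groups overlapped, with a gap of 3.67 to N (-4.74 ± 0.33, adjusted p = 1.658e-05).

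Genes of xenobiotic metabolism were among the falls. Of 34 tested genes, 19 fell and 1 rose (Cyp2b10; 4 rose without N replicate 2), with 14 falls in the programme and a median of -1.66. Cyp2c55, a cytochrome P450 of the colon, stood at 1518, 1197, 1886 and 1215 CPM in N, 114, 110.1, 24.5 and 67.8 in BT-T, with 25.2, 21.7, 54.3 and 11.3 in BTPRZ-T, all far below N (-4.95 ± 0.45, edgeR adjusted p = 7.814e-05). Ces1f, a carboxylesterase, stood at 57.6, 47.1, 83.2 and 54.5 CPM in N, 3.07, 1.41, 2.08 and 1.82 in BT-T, with 0.710, 1.01, 1.27 and 0 in BTPRZ-T. Tumours were again all below N (-5.60 ± 0.54, adjusted p = 0.000100). Ugt2b5, a glucuronosyltransferase, had 1270 reads over the 4 N libraries, 3 over BT-T and 1 over BTPRZ-T, a ratio after scaling of 847 with a 95% counting interval of 330.0 to 3114. Whole families were counted after their values were seen. Of these, 7 of 8 tested Ugt genes, 11 of 20 Gst genes and 7 of 11 Ces genes fell and none rose. The cytochromes P450 had no such direction, with 7 higher and 6 lower of 41 tested. Over all genes tested, 6.57% rose and 6.85% fell. Reads at several loci were not counted, so relatives with near-identical sequence in these families are represented by uniquely placed reads, and their single values are uncertain to that degree.

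Secretory lineages changed less uniformly. Of 24 tested goblet cell genes, 8 fell and 0 rose, 2 of them in the programme, and without N replicate 2, 12 fell and 1 rose. Their summed level was 35077 to 64488 CPM in N, 10158.5 to 16433 in BT-T, with 13079 to 18818 in BTPRZ-T. Muc2, the gel-forming mucin, stood at 17353, 3766, 48471 and 18350.3 CPM in N, 1937, 1643, 2681 and 1716 in BT-T, with 2165.9, 4528, 8860 and 3810 in BTPRZ-T. It fell by the test (-2.82 ± 0.52, edgeR adjusted p = 0.00401) but N replicate 2 lay among the BTPRZ-T libraries. Atoh1, the factor that sets the secretory fate, fell without overlap (122 to 228 CPM in N, 28.5 to 91.2 in tumours). Among 23 enteroendocrine genes, the hormones Gcg, Sst and Insl5 fell and Cpe, a prohormone protease, rose. Gcg, which encodes glucagon-like peptides, fell by 3.52 ± 0.35 on the log2 scale, while Insl5 kept its call in 3 of the 12 fits without 1 library and Cpe in 4. No tuft cell gene of 13 tested was called (0 by edgeR), with 4 lower without N replicate 2, 2 without BTPRZ-T replicate 4 and 1 without BTPRZ-T replicate 3. Of 27 tested intestinal transcription factors, 9 fell and 0 rose, 3 of them in the programme. Without N replicate 2, 14 fell, and without N replicate 4, 2 rose. Cdx1, a homeobox factor of intestinal identity, stood at 299, 269, 271 and 339 CPM in N, 165, 114, 93.6 and 167 in BT-T, with 91.0, 96.7, 89.8 and 76.2 in BTPRZ-T, all below N (-1.43 ± 0.19, adjusted p = 0.000576). Its relative Cdx2 fell with overlap (-1.13 ± 0.24, adjusted p = 0.00899).

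Of 35 tested genes of fatty acid oxidation, ketogenesis and the peroxisome, 19 fell and 1 rose (Acox2, 0 in most fits without 1 library), with 15 falls in the programme. Bdh1, which makes and uses the ketone body beta-hydroxybutyrate, stood at 187, 192, 221 and 183 CPM in N, 83.6, 83.4, 64.7 and 92.3 in BT-T, with 79.1, 59.98, 59.7 and 52.6 in BTPRZ-T. All tumours were well below N (-1.46 ± 0.16, edgeR adjusted p = 0.000237). Oxidative phosphorylation had 17 of 37 tested subunits lower and 0 higher, with 7 in the programme, but 5 to 8 were lower without BT-T replicate 2, 3 or 4 or without BTPRZ-T replicate 2, 3 or 4, and 11 without N replicate 2, whose summed level of 29277 CPM was the highest of N (lowest 8387). Ndufs1, a subunit of complex I, ranged from 138 to 149 CPM in N and from 68.0 to 95.7 in tumours (-0.92 ± 0.14). The median over the oxidative phosphorylation list was -1.27, and -0.40 without N replicate 2. Glycolysis and hypoxia genes gave 2 rises (Vegfa and Egln3) and 1 fall among 29 tested, with 7 rises and 3 falls without N replicate 2 and 4 rises without BTPRZ-T replicate 3. Over all genes tested, 6.57% rose and 6.85% fell, so the counts from all libraries do not set this list apart. Of 35 cell cycle and DNA replication genes, 0 rose and 1 fell (E2f2, which kept its call in 4 of the 12 fits), 1 rose without BTPRZ-T replicate 1, and Mki67, a proliferation marker, stood at 88.1 to 506 CPM in N and 93.9 to 252 in tumours (adjusted p = 0.455). Of 33 cytosolic ribosomal proteins, 0 were called by edgeR, and 26 rose without N replicate 2.

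Genes of the muscle wall and some of fat and of nerves also fell, and their part in other results was not tested. Of 24 tested smooth muscle genes, 17 fell and 0 rose, with 8 in the programme and 11 lower without N replicate 3, any single BT-T library or BTPRZ-T replicate 2. The summed level of these genes was 12951 to 25939 CPM in N, 7439 to 11620 in BT-T, with 1728 to 8044 in BTPRZ-T. Mylk, the kinase of myosin light chain, stood at 997, 655, 1784 and 1004 CPM in N, 429, 579, 386 and 644 in BT-T, with 166, 166, 117 and 284 in BTPRZ-T. It was separated from N by a narrow gap, with BTPRZ-T below BT-T (-1.86 ± 0.30, edgeR adjusted p = 0.00178, and 0.0832 for the difference between genotypes). Of 27 tested genes of enteric neurons and glia, 6 fell and 0 rose, 1 in the programme. The list's median log2 fold change was -0.49 in BT-T and -2.2 in BTPRZ-T. Falls numbered 2 to 3 without N replicate 1, 3 or 4 or BT-T replicate 2 or 3. They numbered 9 without N replicate 2 or BTPRZ-T replicate 1, and 8 without BTPRZ-T replicate 4. Without N replicate 2 and BTPRZ-T replicates 1 and 4 together, 21 fell. The number that rose was 1 without N replicate 2 and 1 without those 3 libraries. Of 13 adipocyte genes, 6 fell, 5 in the programme. Cfd, adipsin, had 533 reads over N, 9 over BT-T and 0 over BTPRZ-T, and Car3, a carbonic anhydrase of fat and muscle, 690, 47 and 2.

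Programme genes included runs of neighbours on the chromosome, read with GRCm38.p6 positions. In the HoxD cluster, homeobox genes of posterior body position, the 4 adjacent tested genes Hoxd13, Hoxd12, Hoxd11 and Hoxd10 (chr2:74668225-74695106) rose by 3.26 to 5.71 on the log2 scale. Hoxd12 stood at 0.115, 0.406, 0 and 0.0675 CPM in N, 7.18, 13.1, 10.49 and 11.1 in BT-T, with 5.42, 4.50, 2.59 and 11.2 in BTPRZ-T, without overlap. Hoxd13 stood at 1.15, 35.3, 0.591 and 5.67 CPM in N, with N replicate 2 far above the other normal libraries, at 175, 142, 124 and 132 in BT-T, with 105, 72.8, 46.2 and 66.7 in BTPRZ-T, and it kept its call in 8 of the 12 fits without 1 library (3.26 ± 0.90, edgeR adjusted p = 0.0312). Of the 8 tested HoxD genes 5 rose, of 9 HoxB genes 4 rose, and of 11 HoxA genes 3 fell, with 5, 2 and 1 in the programme. These clusters were counted after their values were seen, and over all genes tested 6.57% rose and 6.85% fell. At the Cdkn2a locus, Mtap, an enzyme of methionine salvage, and the predicted gene Gm12603 also rose, Mtap by 1.90 ± 0.33 (7.22 to 25.7 CPM in N, 28.2 to 92.9 in tumours). Cdkn2b, which lies beside Cdkn2a and encodes p15 Ink4b, stood at 31.0 to 46.8 CPM in N and 20.6 to 53.1 in tumours and was not called (0.06 ± 0.23, adjusted p = 0.902).

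Other higher runs were 3 surface proteins of the Ly6 family on chr15:74955025-75048920 (Ly6e, Ly6a and Ly6c1, 2.77 to 3.61), 3 TNF receptor relatives on chr7:143607685-143686436 (Tnfrsf26, Tnfrsf22 and Tnfrsf23, 2.64 to 3.79), the leukocyte integrins Itgam, Itgax and Itgad on chr7:128062640-128205504 (2.55 to 3.77), and the interleukin 18 receptor genes Il18r1 and Il18rap with the exchanger Slc9a4 on chr1:40465552-40630731 (3.13 to 5.66). Ly6e stood at 73.7, 126, 109 and 96.7 CPM in N, 522, 663, 1067 and 933 in BT-T, with 1690, 1820, 1988 and 2170.1 in BTPRZ-T. The 3 groups did not overlap for it (3.61 ± 0.30 on average, edgeR adjusted p = 4.24e-05), and the genotype difference of 1.27 ± 0.29 had an adjusted p of 0.0660. Tnfrsf23, a decoy receptor, stood at 17.3, 13.9, 18.9 and 11.7 CPM in N, 54.6, 108, 113 and 88.4 in BT-T, with 104, 91.0, 94.0 and 120.0 in BTPRZ-T, with all tumours above N. Lower runs were Ugt2b34, Ugt2b35, Ugt2b36 and Ugt2b5 on chr5:86889770-87140340, Ces1d, Ces1e, Ces1f and Ces1g on chr8:93166072-93337209 (-5.60 to -2.39), Gstm3, Gstm2, Gstm1 and Gstm4 on chr3:107963696-108045179 (-2.37 to -1.05), and the interferon-inducible GTPases Igtp and Irgm2 with Gm12250 on chr11:58183843-58222783 (-2.70 to -1.64). Ces1e kept its call in 6 and Il18rap in 10 of the 12 fits without 1 library.

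Differences between the tumour genotypes were tested with BTPRZ-T against BT-T, in the same fit, in which the filter, the spread and the programme also use N. Over all genes, 112 were called in either direction (0.754%). In the programme 21 were called: of the higher genes 4 were higher and 3 lower in BTPRZ-T, and of the lower genes 2 were higher and 12 lower. These calls moved with the libraries used, and each of the 21 genes kept its call in 2 to 9 of the 12 fits without 1 library. Without N replicate 2 and BTPRZ-T replicates 1 and 4 together, all 21 were called, with edgeR adjusted p of 0.00250 to 0.0315. With the programme defined anew in each fit, the number of its genes called was 0 without BT-T replicate 2 or 4 or BTPRZ-T replicate 3. It was 1 without BT-T replicate 1, 2 without BTPRZ-T replicate 2, 5 without BTPRZ-T replicate 1 and 6 without N replicate 1. Without N replicate 3 it was 13, without BTPRZ-T replicate 4 it was 66 and without N replicate 2 it was 496. In that last fit the programme held 1056 higher and 1316 lower genes. For the remaining programme genes a missed threshold does not show that the genotypes had the same level.

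Pln, phospholamban, a regulator of the calcium pump of muscle, showed the lowest adjusted p. It stood at 34.1, 29.5, 45.3 and 13.8 CPM in N, 1.39, 1.70, 1.17 and 3.90 in BT-T, with 0.0645, 0.0957, 0.0551 and 0 in BTPRZ-T. BTPRZ-T held 4 reads in all, against 180 over BT-T. Levels stepped down from N to BT-T to BTPRZ-T with no overlap, and the difference of -5.12 ± 0.70 had an edgeR adjusted p of 0.0159, which was between 0.00320 and 0.0901 without single libraries. Syp, a synaptic vesicle protein, was lower in BTPRZ-T too (-2.23 ± 0.34). Of the 12 lower programme genes that were lower still in BTPRZ-T, 7 had 3 reads or fewer over that group, with 76 to 174 over BT-T. These were Dpp10, Colec10, Prkcq, Stac and the following: Gng3, a neuronal G protein subunit, had 108 reads over BT-T and 0 over BTPRZ-T, Slc18a2, the vesicle carrier of amines, 83 and 2, and Grp, a neuropeptide, 117 and 3. In the list of enteric neurons and glia, 1 gene was called lower in BTPRZ-T than in BT-T and 0 higher, and among enteroendocrine genes 0 lower and 1 higher. The summed level of neuronal and glial markers was 474 to 740 CPM in N, 591 to 630.0 in BT-T, with 302 to 391 in BTPRZ-T. That of enteroendocrine genes was 700 to 1174 CPM in N, 480 to 692 in BT-T, with 825 to 1355 in BTPRZ-T. The role of these cells in the differences was not tested.

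Slc5a8, the colonocyte carrier of butyrate and other monocarboxylates, stood at 232, 223, 248 and 310 CPM in N, 181, 155, 88.0 and 142 in BT-T, with 57.2, 40.2, 23.6 and 29.7 in BTPRZ-T. Each group lay below the one before it (difference -1.91 ± 0.31, edgeR adjusted p = 0.0285, and up to 0.106 without 1 library). Pvt1, a long noncoding RNA beside Myc, stood at 2.13, 2.44, 2.30 and 1.55 CPM in N, 2.96, 2.68, 3.66 and 2.69 in BT-T, with 10.1, 11.4, 7.22 and 22.3 in BTPRZ-T. Its BT-T libraries sat just above N and its BTPRZ-T libraries well above both (2.09 ± 0.40, adjusted p = 0.0423, and up to 0.165 without 1 library). Egln3, an oxygen-sensing prolyl hydroxylase, stood at 34.8, 53.3, 26.6 and 59.3 CPM in N, 61.9, 63.5, 124 and 82.6 in BT-T, with 231, 244, 294 and 229 in BTPRZ-T (1.59 ± 0.30, adjusted p = 0.0423, and up to 0.165 without 1 library). Aldh1a3, an enzyme of retinoic acid synthesis, and the transporter Slc4a11 were instead higher in BT-T (differences of -2.44 ± 0.44 and -2.09 ± 0.34).

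**Figure D4:**
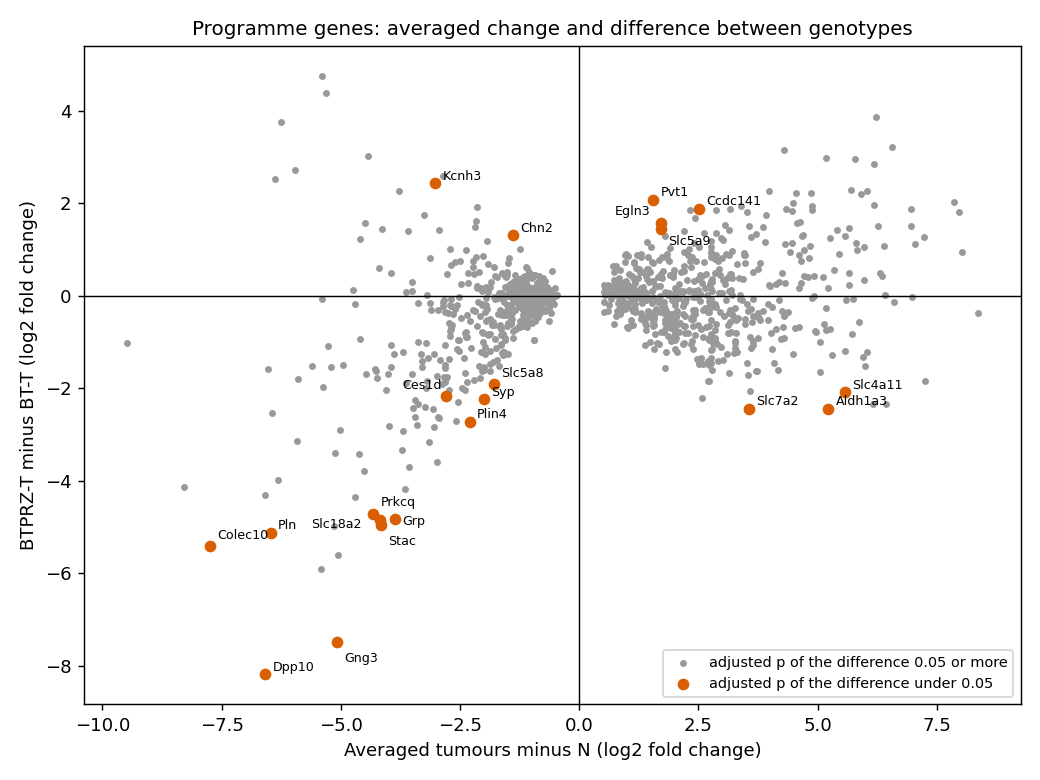
Each point is a programme gene, with the averaged log2 fold change of tumours against N on the x axis and the log2 difference BTPRZ-T minus BT-T on the y axis, and orange points are the 21 with an adjusted p of the difference under 0.05. The gap around 0 on the x axis comes from the definition of the programme, and 12 of the orange points lie at the lower left, among them Pln at -5.12.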

How the data were processed

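The 12 RNA libraries were poly(A)-selected and stranded, with 100-base single-end reads, per the labels' protocols. Listed tools, per the submitters' processing notes, are bcl2fastq 2.20, STAR 2.4.2a, edgeR 3.16.5, limma and HTSeq, with genome mm10. No annotation is stated in the labels. Values are the raw counts of reads by gene that the authors deposited, without normalization, and reads at several loci are counted as 0. The stranded column 4 was used, and the opposite column held 0.819 to 0.994% as many reads.

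Genes were filtered with filterByExpr by group, scaled by TMM and fitted in edgeR 4.0.16 (R 4.3.3; glmQLFit, robust, 1 mean per group, 12 libraries; common biological coefficient of variation 0.501). The averaged contrast took both tumour groups with equal weight against N. Each ± is a standard error, |log2 fold change| over the square root of F. Where a group held 3 reads or fewer, scaled read ratios have 95% exact intervals, which cover counting error only, since reads are not independent molecules. The 34 gene lists hold 983 symbols, of which 8 are not in the files. Lists overlap, so a gene can be counted in more than 1 of them. The programme, lists and named genes were chosen with earlier results of these data known. Named genes were programme genes called in all 12 leave-one-out fits with a mean of at least 5 CPM: the largest rises and falls, widest gaps and highest levels, plus up to 4 genes of lowest adjusted p per list, those differing between genotypes and the edited genes. Other genes in the text were chosen after their values were seen. Some genes that the rule names are not reported here. Positions and promoters are RefSeq's on GRCm38.p6, matched by symbol (14807 genes). The alternatives were other scalings, filters, tools (DESeq2 1.42.0, limma 3.58.1 with voom), the unstranded column, a fold threshold, a replicate block, 1 mean over all tumours, and fits without single libraries. The pipeline was tested on simulated data.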

Additional observations from a re-analysis of the deposited data

Results flagged for a closer look

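Of 132 groups of 4 libraries examined with Dixon's test at its 95% level, 8 had 1 library far from the rest; chance alone flags about 5% of groups. Of these, 4 concern N replicate 2. Its share of ribosomal protein reads was 10.57%, against 1.517 to 1.866% in the other N libraries, and it had 14175 genes with a read, against 16152 to 16432. Wnt7b stood at 7.107 CPM in it against 0.115 to 0.540, and Hoxd13 at 35.26 against 0.591 to 5.67.

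In BT-T, replicate 1 was the lowest for Arhgap40 (10.11 CPM against 18.2 to 19.7), and replicate 3 was the highest for Aqp5 (16.78 CPM against 1.42 to 3.36). In BTPRZ-T, replicate 4 was the highest for Col1a1 (2749.8 CPM against 453 to 840.0), and replicate 2 for Ugt2b5 (0.04787 CPM, which is 1 read, against 0).

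Of the genes shown by library, 4 differed between the tumour genotypes by the edgeR test of BTPRZ-T minus BT-T on the log2 scale. These were Pln at -5.122, Slc5a8 at -1.908, Pvt1 at 2.086 and Egln3 at 1.587, with adjusted p of 0.0159, 0.0285, 0.0423 and 0.0423. Each lost its call in at least 3 of the 12 fits without 1 library.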

How the results depend on the processing

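In the order genes called higher, genes called lower, programme higher, programme lower and programme genes differing between genotypes, all libraries gave 976, 1018, 596, 480 and 21. The programme was defined anew in each setting below. DESeq2 gave 1473 and 1627 called genes and 154 differing, limma with voom 45 differing, and a test against a fold of 1.5 gave 571 and 426 called, 275 programme lower and 1 differing. With 1 mean over all 8 tumour libraries, 642 genes were lower. Leaving out 1 library in turn gave 583 to 1711, 653 to 1908, 494 to 1056, 387 to 1316 and 0 to 496, each upper end without N replicate 2. Leaving out N replicate 2 and BTPRZ-T replicates 1 and 4 together, the 3 with the fewest genes read, gave counts of 2864, 2723, 1808, 1593 and 808, and voom with sample quality weights gave 3475 and 3984 called and 636 differing. The causes were not tested. RLE and upper quartile scaling, no filter, a filter of 2 CPM, the unstranded column and no robust estimation kept all of these counts within 1.5 times. The replicate numbers are not said to pair the libraries, and the deviations of same-numbered libraries had correlations of -0.297 to 0.315. With a replicate block, 614 genes were lower and 0 programme genes differed.

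Of 177 genes named or shown, 172 were called, and 145 of these kept direction and call in every alternative but the fold test. Those that changed sign were uncalled: Znrf3 ranged from -0.2155 without N replicate 2 to 0.5124 without N replicate 3 over fits without 1 library, and was -0.03946 without those 3 libraries and -0.1161 with quality weights. Cdkn2b ranged from -0.03434 without N replicate 3 to 0.2007 without BTPRZ-T replicate 4, and was -0.02083 without BTPRZ-T replicate 2. For genes with few reads in a group, given as reads in the text, counting error limits the precision.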

Other observations

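Transcripts of the sex chromosomes were uneven within groups. Xist, made by the inactive X chromosome of females, stood at 1.09, 16.6, 2.84 and 1153 CPM in N replicates 1 to 4, at 1381, 210.4, 396 and 95.8 in BT-T, with 964, 730.4, 1549 and 505 in BTPRZ-T. Ddx3y, on the Y chromosome, stood at 43.7, 37.3, 33.4 and 0.0675 CPM in N, at 0.0349, 47.6, 39.4 and 40.7 in BT-T, with 0.0645, 12.7, 0.110 and 0 in BTPRZ-T. In BT-T replicates 2, 3 and 4 and BTPRZ-T replicate 2, both transcripts were well above the levels of the libraries that lacked one of them. Neither gene was called in the averaged comparison (edgeR adjusted p = 0.622 for Xist and 0.547 for Ddx3y). The labels give no sex.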
